A study of Mus musculus with 8 samples.

Results

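MEF2 factors, class IIa histone deacetylases (HDACs) and the calcium/calmodulin-dependent protein kinase II (CaMKII) chains were examined in the tibialis anterior (TA), a fast muscle of the lower leg, of mdx5cv and WT mice. The 10 members, namely Mef2a, Mef2c, Mef2d, Hdac4, Hdac5, Hdac7, Hdac9, Camk2a, Camk2b and Camk2d, were taken by gene symbol out of 55401 genes in the table, of which 28501 had a read in any muscle. The WT group held 4 muscles of C57/Bl6 mice and the mdx5cv group held 4 muscles of mice of the same strain, all 6 months old and with no treatment given in the labels. The mdx5cv mouse is a model of Duchenne muscular dystrophy that carries a point mutation in Dmd, the dystrophin gene, in every cell, and the study's methods name male mice unless stated otherwise. The labels number the muscles but do not say that each came from a different mouse, so p-values measure the spread between these muscles.

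MEF2 proteins are transcription factors that bind an A- and T-rich site in the promoters of many muscle genes and act together with the myogenic regulators. Class IIa HDACs have little deacetylase activity of their own and repress MEF2 by sitting on it and bringing in a corepressor complex. When calcium rises, calmodulin switches on CaMKII and related kinases, which phosphorylate the class IIa HDACs, and the phosphorylated HDACs are held by 14-3-3 proteins and leave the nucleus. This step is best known in muscle from activity-dependent fiber type control and from the response to denervation. It acts on proteins, and the data below are amounts of RNA.

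The binding site that defines MEF2 was looked for in the members' own promoters, since MEF2 genes are known MEF2 targets. A promoter here runs from 250 bases before to 50 bases after a RefSeq start site (GRCm38.p6), and 9 of the 10 members had at least 1, with 15 windows in all. The 10-base MEF2 consensus, which reads the same way on both strands, was found in 2 members, Mef2a and Hdac5. The consensus was also found in 4 of the 70 other pathway genes with a promoter. Over all genes it was found in 246 of the 10039 tested genes with a promoter. Counted by window, 3.19% of all 32851 windows held it, and a gene can have several windows. In each stretch of 30 bases the capitals mark the match.
Mef2a, chr7:67372841-67372870, minus strand, match beginning 2 bases before the start: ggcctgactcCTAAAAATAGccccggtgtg
Hdac5, chr11:102230173-102230202, minus strand, match beginning 20 bases before the start: gggtctgagcCTATTTTTAGctcggggtcg
Xirp2, chr2:67445918-67445947, plus strand, match beginning 74 bases before the start: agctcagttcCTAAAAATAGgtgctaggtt
Pgam2, chr11:5803857-5803886, minus strand, match beginning 80 bases before the start: ttttgtgagaCTATTTTTAAgttcagctcc
Jun, chr4:95052236-95052265, minus strand, match beginning 33 bases before the start: acatcatgggCTATTTTTAGggattgactg
Ywhah, chr5:33018696-33018725, plus strand, match beginning 110 bases before the start: ctcgccgcggCTATTTATAGtaggtgacgt
A match is a description of the letters in the window, and binding was not measured.

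None of the 10 members was called different between mdx5cv and WT muscle, while 40.9% of the 13677 genes tested were. A gene was called at an adjusted p under 0.05 by limma on log2(normalized count + 1) with Benjamini-Hochberg adjustment over all genes tested, namely those whose normalized count averaged 10 or more over the 8 muscles. All 10 members passed that filter, and their adjusted p-values ran from 0.0872 for Camk2b to 0.791 for Mef2a. With edgeR and with DESeq2 on the recovered reads the count was 0 as well. At an unadjusted p under 0.05 limma gave 1 member, Camk2b, beside 49.1% of all genes, and the values of mdx5cv and WT muscles overlapped for all 10 members, whereas 40.1% of all genes had no overlap. The estimate was above 0 for 7 members and below 0 for 3.

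The members' differences were small. Their median absolute log2 fold change was 0.0885 against 0.357 over all genes tested, and the member that ranked highest on that measure among all genes, Hdac9, was at the percentile 38.9. The median standard error was 0.116 for the members and 0.166 for all genes, with Camk2a (0.195) above the latter. Across the members the 95% intervals of the log2 fold change reached down to −0.51, in Camk2a, and up to 0.57, in Hdac9. Genes that were called and also moved by 1 or more on the log2 scale made up 13.6% of all genes, and no member's interval reached that size. The members were well detected, between the 63.5th percentile of level, in Hdac9, and the 99.4th, in Mef2c, and between 137 and 10710 reads per muscle.

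**Figure D1:**
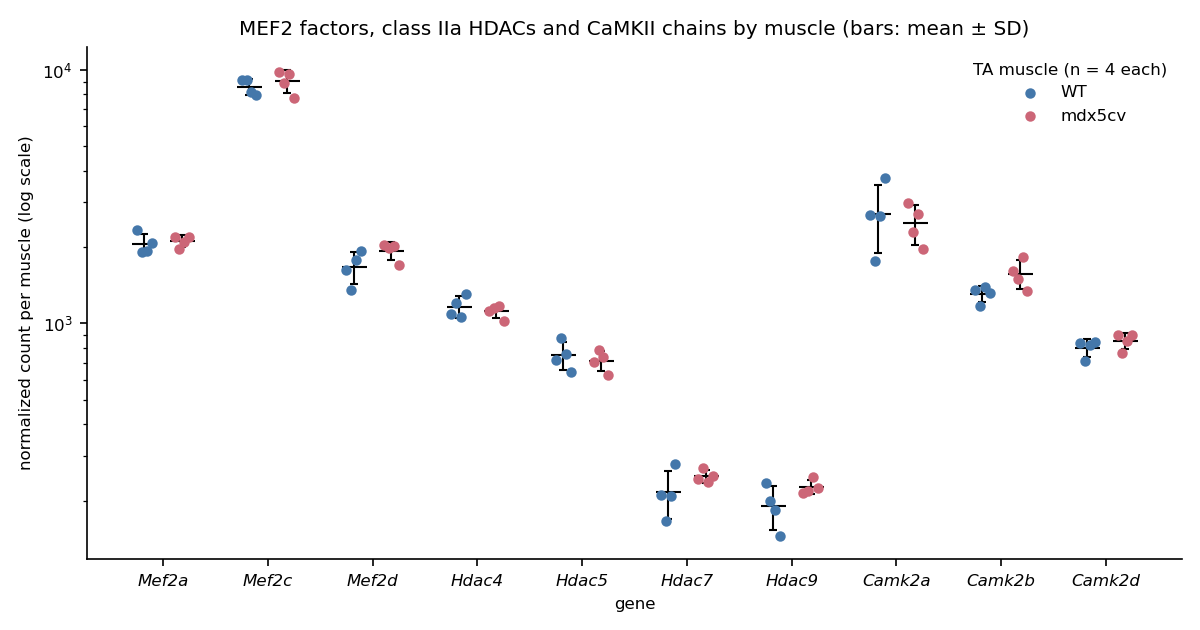
Normalized count (log scale) of the 10 members in each of 4 WT and 4 mdx5cv TA muscles, with points for muscles and bars for the mean ± SD. Mef2c is highest (7742 to 9812) and Hdac9 lowest (145 to 249), and for every member the points of the 2 groups overlap.

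Libraries held 13862559 to 14921057 reads in WT and 13175524 to 14502624 in mdx5cv. Size factors were lower in WT (0.873 to 0.944) than in mdx5cv (1.06 to 1.25), and the groups did not overlap. The mutated gene itself, Dmd, had 6169 to 8155 normalized counts in WT and 3461 to 4399.6 in mdx5cv. Its log2 fold change was −0.81 ± 0.12 (SE, limma adjusted p = 0.000177). The 7 marker genes of mature muscle fibers (Acta1, Ckm, Ttn, Myh1, Myh2, Myh4 and Tnnt3) were present in all 8 muscles. Their summed normalized counts were 2996050 to 3203360 in WT and 2040620 to 2785440 in mdx5cv, with Ttn the largest part (mean 2093450 in WT). Ckm, Myh2 and Tnnt3 were called lower, and the other 4, Ttn among them, were not called. Macrophage markers were called higher for 6 of 6 genes, with sums of 518 to 797 in WT and 3806 to 9142 in mdx5cv. Markers of regenerating fibers were called higher for 6 of 6 (198 to 229 in WT, 2514 to 9398 in mdx5cv), fibroblast markers for 4 of 5 (5196 to 7870.2 and 17446 to 31390.2) and endothelial markers lower for 4 of 5 (2492 to 3067 and 1588 to 2036). Fewer cells of a type and less RNA per cell cannot be told apart in such samples, and the part of these shifts in the members' values was not tested.

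The scaling of libraries decides the direction for several members. When every library was set to the same total, the median over all genes moved from 0.00 to 0.36 on the log2 scale, 39.8% of all genes were called higher, and 9 of the 10 members were called higher as well, with Camk2a (0.27) the exception. Relative to that median the members lay between −0.09 and 0.27, and 3 of them, Hdac4, Hdac5 and Camk2a, were below it. Of the ratios between members within a muscle, which do not depend on scaling, none passed its test, as given below.

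Mef2c, which drives the formation and maintenance of sarcomeres, was the most abundant member per kb of exon. Its normalized counts were 9116, 9083, 8177 and 7926 in WT muscles 1 to 4, and 9812, 8897, 9644 and 7742 in mdx5cv muscles 1 to 4. The mdx5cv muscles included both the highest and the lowest of the 8 values. The log2 fold change was 0.07 ± 0.12 (SE), that is 4.98% higher with a 95% interval of −11.9% to 25.1% (limma adjusted p = 0.664). Mef2a, the chain best known from adult and cardiac muscle, had 2336, 1919.6, 1924 and 2084 in WT and 2197, 1971, 2099 and 2195 in mdx5cv. All 4 mdx5cv values lay inside the WT range, and the log2 fold change was 0.04 ± 0.10 (adjusted p = 0.791 by limma).

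Mef2d, whose muscle splice form is an activator of late differentiation genes, came to 1631, 1352, 1785 and 1927 in WT and to 2044, 1984, 2012 and 1703 in mdx5cv. In mdx5cv, 3 of 4 muscles were above every WT muscle and the remaining one, muscle 4, lay inside the WT range. The estimate was 16.3% higher, with a 95% interval of −2.73% to 39.1% and a limma adjusted p of 0.164. Without WT muscle 2 the log2 fold change went from 0.22 to 0.12. Mef2b, the remaining MEF2 gene and not a member, had 2 to 8 reads per WT muscle and 0 to 2 per mdx5cv muscle, too few for the test. Counts per gene do not separate the splice forms of Mef2c and Mef2d, or the short form of Hdac9 that lacks the deacetylase domain (MITR).

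Per kilobase of exon the order of the MEF2 genes was the same in both genotypes. Mef2c gave 56.5% ± 4.14 (SD, n = 4) of the family's normalized counts per kb in WT and 55.0% ± 1.38 in mdx5cv, Mef2d 28.9% ± 4.14 and 31.0% ± 0.719, and Mef2a 14.5% ± 0.87 and 13.9% ± 1.49. The shares of these neighbours in the order did not overlap within either genotype. The summed level of the family was 966 ± 33.3 normalized counts per kb in WT and 1042 ± 84.4 in mdx5cv. Exon lengths are those of all annotated transcripts of a gene joined together (GENCODE M21), so a gene whose muscle transcripts use few of its exons is given too low a level.

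Hdac4, the class IIa enzyme most studied in denervated muscle, had normalized counts of 1088, 1204, 1055 and 1308 in WT and of 1122, 1155, 1171 and 1021 in mdx5cv. The mdx5cv muscles were spread over a narrower range than the WT muscles, with muscle 4 below all of them. The log2 fold change was −0.06 ± 0.10 (SE), with a 95% interval of −17.3% to 11.9% (limma adjusted p = 0.690). Hdac5, which with Hdac4 is tied to fiber type control, had 719.7, 872, 759.6 and 642 in WT and 707, 783, 737 and 624 in mdx5cv, with a log2 fold change of −0.07 ± 0.12. The groups lay almost on top of each other. Hdac5 and Mef2a, whose promoters hold the MEF2 consensus shown above, had log2 fold changes near 0 (−0.07 and 0.04). Hdac4 (−0.06) and Mef2c (0.07), for which no match was found, differed about as little.

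Hdac7, which is best known from endothelial cells and developing thymocytes, had 211, 166, 208 and 278 in WT and 244, 269.8, 236 and 249 in mdx5cv. The 4 mdx5cv muscles were above the WT mean but under the highest WT muscle, muscle 4, which was also the one with the lowest Hdac9. The log2 fold change was 0.23 ± 0.14 (limma adjusted p = 0.216), and without WT muscle 4 it was 0.36 and passed the test (adjusted p = 0.0391), while without WT muscle 2 it was 0.12 (0.495). Endothelial markers fell in the same muscles in 4 of 5 cases, with values given above. Hdac9, which in muscle is induced by MEF2 and feeds back on it, had 235, 199.6, 184 and 145 in WT and 215, 219, 249 and 224 in mdx5cv. Its WT muscles were spread widely and its mdx5cv muscles narrowly, and only mdx5cv muscle 3 exceeded every WT value. The estimate was 20.2% higher (95% interval −2.99% to 48.9%, limma adjusted p = 0.158). Its log2 fold change of 0.27 became 0.14 without WT muscle 4 and 0.37 without WT muscle 1, with neither past the threshold (0.402 and 0.0600).

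Among the class IIa HDACs, Hdac5 and Hdac4 led per kb of exon and were close to each other. Hdac5 made up 41.8% ± 4.79 (SD, n = 4) of the family in WT and 39.7% ± 1.35 in mdx5cv, and Hdac4 36.1% ± 2.70 and 34.6% ± 0.743. In WT the ranges of these shares overlapped (35.4% to 46.5% for Hdac5, 33.9% to 40.0% for Hdac4), and in mdx5cv they did not (37.8% to 41.1% and 33.6% to 35.3%). Hdac7 followed with 15.7% ± 3.42 and 18.1% ± 1.25, and Hdac9 with 6.40% ± 1.35 and 7.58% ± 0.618. The summed level of the 4 genes was 204 ± 8.01 normalized counts per kb in WT and 204 ± 12.5 in mdx5cv.

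Camk2b, the chain that binds actin and anchors the kinase, was the member nearest to the threshold. It had normalized counts of 1352, 1174, 1393 and 1319.9 in WT and 1611, 1493, 1824 and 1338 in mdx5cv. Of the mdx5cv muscles, 3 of 4 were above every WT muscle and muscle 4 was inside the WT range. The log2 fold change was 0.25 ± 0.11 (SE), an estimate 19.1% higher with a 95% interval of 0.831% to 40.7%, and the limma adjusted p was 0.0872. Without mdx5cv muscle 4 the log2 fold change was 0.32 and passed the test (adjusted p = 0.0281). Without WT muscle 2 it was 0.20 (limma adjusted p = 0.169), and without mdx5cv muscle 1 it was 0.24 (0.177). With each muscle centred on its median it was 0.16 (0.321).

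Camk2a had the widest spread between muscles of all members. Its normalized counts were 2665, 1758, 2662 and 3752 in WT and 2993, 2293, 2709 and 1973 in mdx5cv, so the mdx5cv muscles lay wholly inside the WT range. The coefficient of variation was 30.1% in WT and 18.1% in mdx5cv. Of 644 genes whose mean level was within a factor of 2 of Camk2a, 94.9% had a smaller spread within groups. The log2 fold change was −0.09 ± 0.20 (limma adjusted p = 0.749), with a 95% interval of −29.7% to 26.0%. In skeletal muscle this gene also gives αKAP, a short protein without the kinase domain that anchors CaMKII to membranes, and counts per gene do not separate it from the kinase.

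Camk2d, the main chain of the heart, had 835, 709.7, 819 and 845 in WT and 898, 764, 854 and 898 in mdx5cv. In mdx5cv, 3 of 4 muscles were just above the highest WT muscle, and the log2 fold change was 0.09 ± 0.10 (limma adjusted p = 0.509). Camk2g, the remaining CaMKII gene and not a member, had 2026, 1665, 2064 and 2121 in WT and 1800.1, 1790.5, 1893 and 1405 in mdx5cv. Its log2 fold change was −0.20 ± 0.12 (adjusted p = 0.209 by limma), and with equal totals it was 0.16.

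With Camk2g counted in, Camk2a and Camk2g were the leading CaMKII chains per kb of exon. Camk2a made up 42.0% ± 5.59 (SD, n = 4) in WT and 40.9% ± 2.53 in mdx5cv, and Camk2g 36.6% ± 2.93 and 33.2% ± 1.82. These neighbours in the order overlapped in WT and did not in mdx5cv. Camk2b made up 17.2% ± 2.22 in WT, with a range of 14.2% to 19.6117%, and 21.2% ± 1.18 in mdx5cv, with a range of 19.6465% to 22.3%, so the groups were separated by a very small gap. Among the 3 members alone, the share of Camk2b overlapped between the groups. Camk2d was lowest, at 4.26% ± 0.457 and 4.74% ± 0.815. The summed level of the 4 chains was 849.8 ± 148 normalized counts per kb in WT and 813 ± 109 in mdx5cv.

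**Figure D2:**
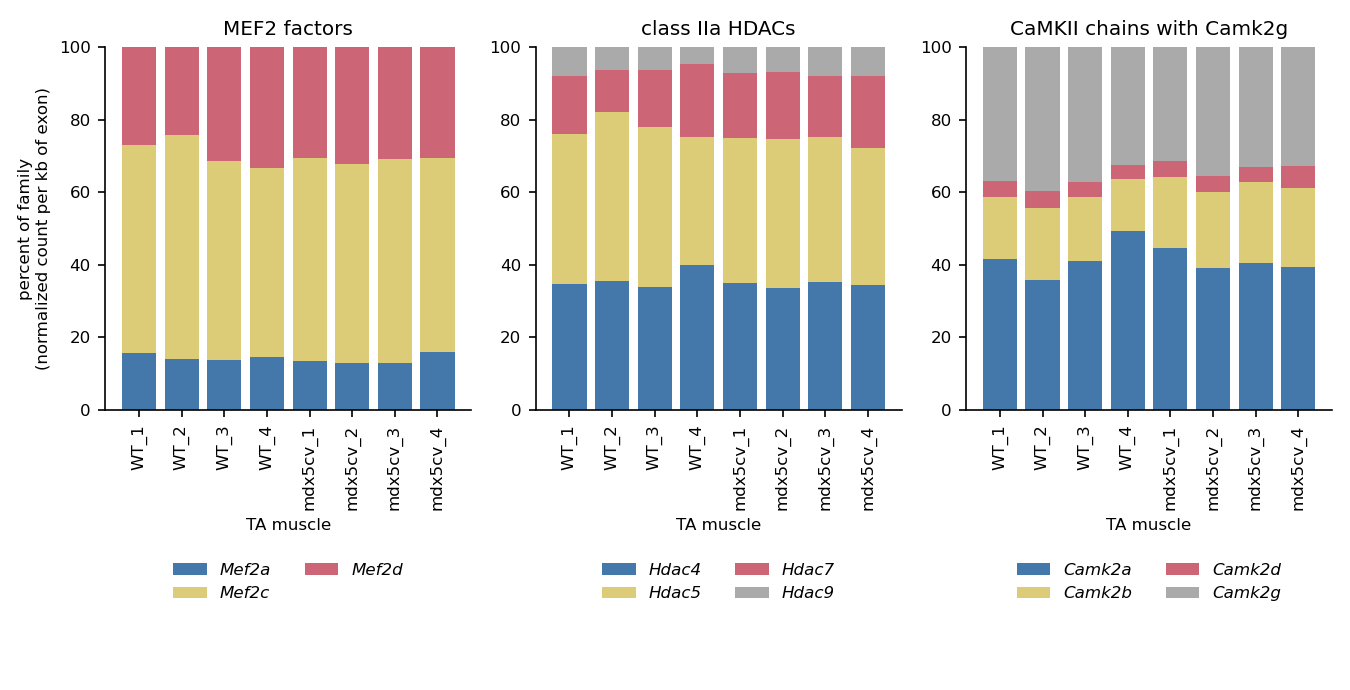
Share of each gene in the normalized counts per kb of exon of its family (percent, vertical axis) in each of the 8 TA muscles. Mef2c leads the MEF2 genes in every muscle, Hdac4 and Hdac5 together make up most of the class IIa HDACs, and the share of Camk2b is 14.2% to 19.6117% in WT and 19.6465% to 22.3% in mdx5cv.

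Ratios of one member to another in the same muscle were compared for the 12 pairs within families. None had an exact p under 0.05 (exact permutation test, two-sided, 4 against 4 muscles, smallest p possible 0.0286), and the lowest p adjusted over the 12 pairs was 0.343. The lowest p was that of Hdac4 to Hdac7, with a log2 ratio of 2.45 ± 0.28 (SD, n = 4) in WT and 2.16 ± 0.12 in mdx5cv (exact permutation p = 0.0571). The ratio of Hdac5 to Hdac9 was 1.98 ± 0.25 and 1.65 ± 0.16 (exact permutation p = 0.0857), and that of Camk2a to Camk2b was 1.0003 ± 0.38 and 0.66 ± 0.16 (exact permutation p = 0.0857). The ratio of Hdac4 to Hdac5 was nearly equal in the groups, at 0.64 ± 0.26 in WT and 0.65 ± 0.06 in mdx5cv. The spread of the ratio was larger in WT than in mdx5cv for 10 of the 12 pairs, which share genes with each other. The same held for the coefficient of variation of 8 of the 10 members, beside 55.3% of all genes tested.

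**Figure D3:**
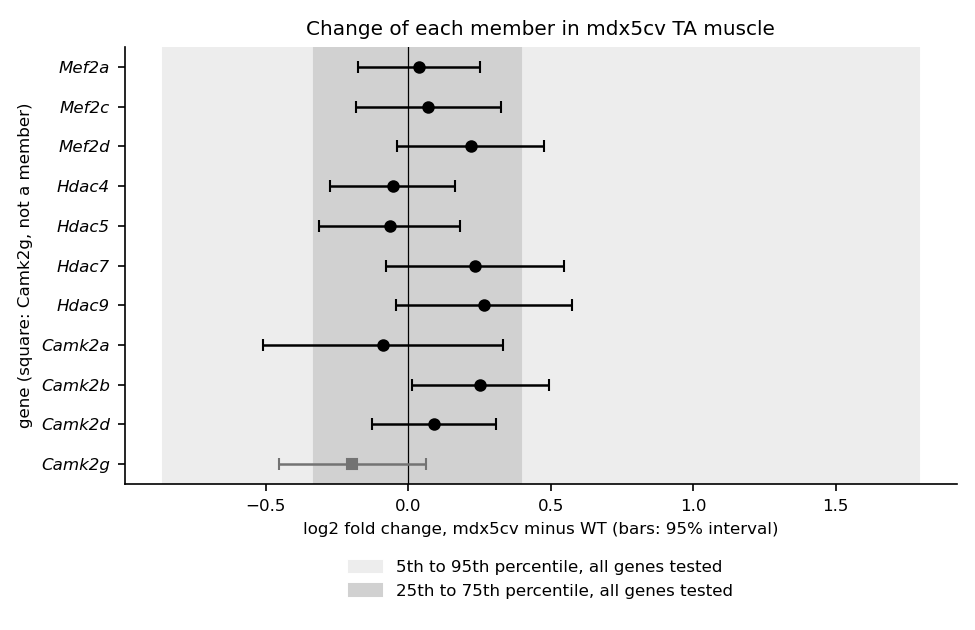
Log2 fold change (mdx5cv minus WT) of the 10 members and of Camk2g with 95% intervals, over the spread of all 13677 genes tested. All 10 members lie between −0.09 and 0.27, inside the 25th to 75th percentile of all genes (−0.33 to 0.40), and the interval of Camk2b alone leaves out 0.

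The muscles that were lowest for one member were often lowest for others. Among mdx5cv muscles, muscle 4 had the lowest value for 6 of 10 members (Mef2c, Mef2d, Hdac4, Hdac5, Camk2a and Camk2b), and among WT muscles, muscle 2 was lowest for 6 of 10 (Mef2a, Mef2d, Hdac7, Camk2a, Camk2b and Camk2d). How often these 2 muscles were lowest over all genes was not counted, so a trait of the whole library cannot be told apart. mdx5cv muscle 4 also had the largest size factor (1.25) and the most genes with reads (22316). It was the muscle with the highest Myog, at 754 normalized counts, and the remaining mdx5cv muscles had 221 to 401.

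The genes whose levels followed a member most closely over the 8 muscles were listed for the member with the lowest adjusted p in each family, as a description. For Mef2d these were Deptor (Pearson r = 0.990), Eif4g3 (0.987) and Smarcd1 (0.982). Hdac9 was followed by Dnal4 (0.963), Lhfp (0.947) and Prdm10 (0.942), and Camk2b by Map7d1 (0.954), H2aw (0.937) and Zfp503 (0.926). Of these 9 genes only Zfp503 was itself called, with a log2 fold change of 0.62 (limma adjusted p = 0.0110). The highest of many correlations over 8 points is high by selection.

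Genes that act with the members were examined next. Of 91 genes in 12 lists of the pathway, 85 could be tested, and 20 were called higher (20.9% of all genes were) and 23 lower (20.1% of all genes were). The called share was 50.6% of the pathway genes against 40.9% of all genes. With equal totals the split was 41 higher and 8 lower. There 5444 of all 13677 genes (39.8%) were called higher, of 6264 called in all. Some of these lists hold genes of dystrophic or regenerating muscle that were known from these data, so their counts are a description.

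**Figure D4:**
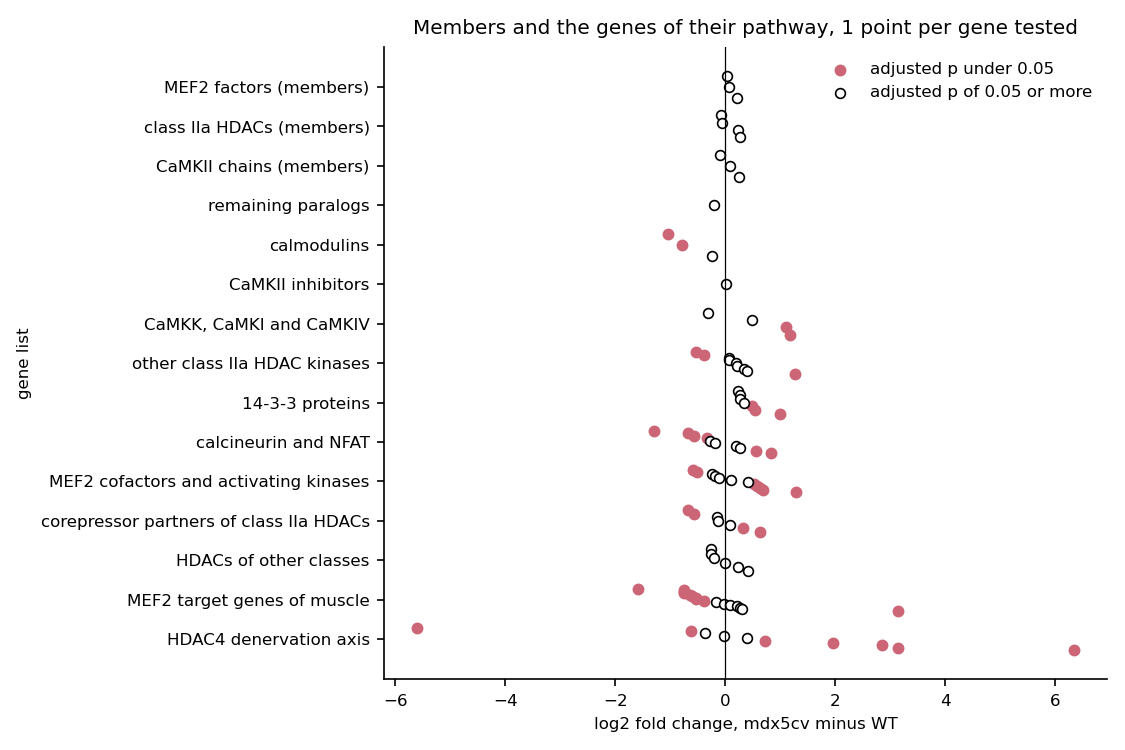
Log2 fold change (mdx5cv minus WT) of every tested gene, 1 point per gene, by list, with filled points for an adjusted p under 0.05. The 10 members (−0.09 to 0.27) and the HDACs of other classes (−0.25 to 0.42) are all open points, while genes of the denervation axis reach from −5.60 to 6.35.

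Upstream of CaMKII stands calmodulin, the calcium sensor that switches the kinase on and that is encoded by several genes. Calm3 fell from 3079 ± 149.9 normalized counts (SD, n = 4) in WT to 1836 ± 398 in mdx5cv, by 0.77 on the log2 scale (adjusted p = 0.00114 by limma). Calm2 had 1372 ± 64.4 and 1166 ± 118, a log2 fold change of −0.24 that did not pass the test (limma adjusted p = 0.0708). Its values did not overlap between the groups, as for 40.1% of all genes. Calm2 passed the test without mdx5cv muscle 3 (0.0460) and with each muscle centred on its median (−0.33, 0.0223). With equal totals its log2 fold change became 0.12. Reads shared with processed pseudogenes of calmodulin and of 14-3-3 genes could not be separated here.

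Camk2n1, an inhibitor of CaMKII, had a mean of 53.3 normalized counts in WT and 51.8 in mdx5cv and was not called. Among the related kinases CaMKK, CaMKI and CaMKIV, 2 of 4 tested genes were called higher and none lower. Camkk2, which activates CaMKI, CaMKIV and AMPK, rose from 63.9 ± 15.2 to 144 ± 20.5 (log2 fold change 1.18, limma adjusted p = 0.00026). Camk1d, a CaMKI chain, rose from 43.1 ± 5.74 to 97.1 ± 32.8, with the widest spread in mdx5cv. Camk4 had at most 1 read in a WT muscle and 2 to 7 in a mdx5cv muscle.

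Of the 9 other kinases of class IIa HDACs, 1 was called higher and 2 lower. Sik1, a salt-inducible kinase that is itself induced by cAMP and activity, rose from 109 ± 38.8 to 255 ± 49.6 normalized counts (log2 fold change 1.27, limma adjusted p = 0.000493). Prkaa2, the AMPK catalytic chain that prevails in muscle fibers, fell from 6093 ± 248 to 4233 ± 558, by 0.53 on the log2 scale. Sik2 fell by 0.38 (adjusted p = 0.0286 by limma), a call lost without WT muscle 1, WT muscle 4, mdx5cv muscle 1 or mdx5cv muscle 2 (0.0518 to 0.0738) and without the variance trend (0.0506). With equal totals the log2 fold changes of Prkaa2 (−0.18) and Sik2 (−0.02) did not pass the test. The protein kinase D genes Prkd1, Prkd2 and Prkd3 did not pass the test, with log2 fold changes of 0.07 to 0.21.

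Downstream of the kinases, 3 of the 7 14-3-3 genes, whose proteins hold phosphorylated HDACs in the cytoplasm, were called higher and none lower. Ywhaz rose from 245 ± 36.6 to 491 ± 84.9 normalized counts, a log2 fold change of 0.998 ± 0.14 (limma adjusted p = 0.000137). Ywhab rose by 0.54 and Ywhah by 0.48 on the log2 scale, and both lost the call without WT muscle 1, WT muscle 3 or mdx5cv muscle 4 (limma adjusted p of 0.0509 to 0.0725), and Ywhab also without the variance trend (0.0536). Ywhae and Ywhag had log2 fold changes of 0.24 and 0.26 that did not pass. These genes are expressed in most cell types, and the macrophage and fibroblast markers given above rose in the same muscles. The part of cell content in the 14-3-3 values was not tested.

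Of the 7 corepressor partners, 2 were called higher and 2 lower. Hdac3, the enzyme that gives the class IIa HDAC complex its deacetylase activity, fell from 532 ± 82.8 to 358 ± 23.3 normalized counts, by 0.56 on the log2 scale (limma adjusted p = 0.0033), and Gps2, another subunit of the complex, fell by 0.67. With equal totals Hdac3 (−0.20) and Gps2 (−0.31) did not pass the test. None of the 6 HDACs of other classes was called, and their log2 fold changes ran from −0.25 to 0.42.

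Of the 12 MEF2 cofactors and activating kinases, 5 were called higher and 2 lower. Mapk7 (ERK5), a kinase that phosphorylates MEF2 proteins, had 10.97 to 37.1 normalized counts in WT and rose to 47.2 to 82.3 in mdx5cv (log2 fold change 1.29, limma adjusted p = 0.00698). Vgll3, a TEAD cofactor, rose by 0.69, and Mamstr, a MEF2 coactivator, by 0.63 with an adjusted p of 0.0495 by limma that did not hold with either count test, edgeR (0.0536) or DESeq2 (0.0573), nor without the variance trend (0.102), nor without WT muscle 1 or 2 or mdx5cv muscle 1, 3 or 4 (0.0756 to 0.144). In the calcineurin and NFAT list, a parallel calcium pathway, 2 of 10 genes were called higher and 4 lower. Rcan2, a calcineurin regulator, fell from 660.1 ± 78.8 to 281 ± 98.4 (−1.29, adjusted p = 0.000311 by limma), Ppp3cc, a catalytic subunit, fell by 0.68, and Nfatc2 rose by 0.84. With equal totals Ppp3cc was at −0.32 and did not pass the test (limma adjusted p = 0.0668).

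Among 16 genes known as MEF2 targets in muscle, 9 were called lower and 1 higher. Mb, myoglobin, fell from 20504 ± 4774 to 6881 ± 1967 normalized counts (log2 fold change −1.59 ± 0.21, limma adjusted p = 8.97e-05). Ckm, muscle creatine kinase, fell by 0.75 (adjusted p = 0.0227 by limma), and this call was lost without WT muscle 2, WT muscle 3 or mdx5cv muscle 1 (0.0511 to 0.0656) and with no filter on low genes (0.187). Myog, myogenin, the one called higher, rose from 40.4 ± 6.62 to 407 ± 245 (3.14 ± 0.30, adjusted p = 7.61e-06 by limma). Of the 3 targets whose promoters held the MEF2 consensus (shown above), Xirp2 (−0.74) and Pgam2 (−0.61) were called lower and Jun (0.26, adjusted p = 0.0608 by limma) was not called. Over all genes, 246 tested genes had the consensus in a promoter, of which 16.3% were called higher and 27.2% lower. Of all 10039 tested genes with a promoter, 2145 were called higher (21.4%) and 2113 lower. Members of this list also mark mature fibers. The summed counts of the 7 fiber markers were lower in mdx5cv, but only 3 of the 7 were called lower. The part of fiber content was not tested.

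Genes of the HDAC4 denervation axis, in which Hdac4 represses Dach2 and thereby releases Myog and the acetylcholine receptor genes after nerve loss, were called higher in 5 and lower in 2 of 10 tested. Dach2, a repressor of Myog, had 139.8, 203, 111 and 79.4 normalized counts in WT and 1.85, 3.77, 0.900 and 0.799 in mdx5cv, so it was near absent from all 4 mdx5cv muscles. Its fitted log2 fold change was −5.60, a value that depends on the pseudocount at such low levels. The other gene called lower was Fbxo32, a ubiquitin ligase gene of the list (−0.62, limma adjusted p = 0.0248). Trim63 (−0.37), Musk (−0.01) and Chrne (0.40) were not called, so the genes of the list did not all move one way. Chrng, the fetal acetylcholine receptor subunit, had no read in 3 WT muscles and 1 read (1.06 normalized counts) in WT muscle 4, against 110.25, 49.1, 69.3 and 230.1 normalized counts in mdx5cv. The Hdac4 values of the same muscles, given above, overlapped between the groups. Chrng and Myog are also markers of regenerating fibers, all 6 of which were called higher, and regeneration and loss of nerve contact cannot be told apart in these muscles.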

How the data were processed

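Total RNA of 4 WT and 4 mdx5cv TA muscles was measured by RNA-seq with stranded libraries depleted of ribosomal RNA. The authors deposited 1 unfiltered table in which the signal of a gene is its count after division by the library's size factor. The submitters' processing notes name Trim Galore 0.6.4, STAR 2.6.0c, featureCounts, DESeq2 1.26.0 and the build mm10, and the strand setting of the counting is not given in the sources used here. Exons of Mef2a, Mef2d, Hdac4 and Hdac7 overlap genes on the opposite strand, by 29 to 3536 bases, whose reads could be mixed with theirs if strand was not used. Whole reads were recovered for 100% of values (tolerance 0.01), and recomputing median-of-ratios factors gave the same size factors. Replicates differed by more than sampling noise.

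Groups were compared in limma 3.58.1 (R 4.3.3), with lmFit and a trended eBayes, two-sided and without covariates. The values fitted were log2(normalized count + 1) of genes averaging 10 or more. A fold change on this scale understates the change of low genes. Ratios of members were compared by an exact permutation test in scipy 1.17.1. Recovered reads were also tested in edgeR 4.0.16 and in DESeq2 1.42.0. Other pseudocounts (0.1 and 10), other filters, 3 other scalings (TMM factors, medians and equal totals), a fit without the variance trend and the leaving out of each muscle were tried. The scripts were tested on simulated data. Levels between genes were compared per kb of GENCODE M21 exon, with 55141 of 55401 gene IDs matched. All 10 members, Dmd, paralogs and calmodulins were to be named, and of each other pathway list at most the 3 called genes with the largest absolute log2 fold change. Results of 2 of these genes are not reported here. Genes with a MEF2 consensus were named by that match, and Fbxo32, Trim63, Musk and Chrne as the genes of the denervation axis not called higher. The members and the lists were chosen with earlier results of these data known, and the promoter search was added after the data were seen. Same-numbered muscles deviated together only weakly (r of 0.03 to 0.15). Not every muscle correlated best with its own number, so the numbers were not used as pairs.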

Additional observations from a re-analysis of the deposited data

Results flagged for a closer look

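In 44 sets of 4 muscles (each member and each ratio of members in each genotype), a single muscle stood apart from the other 3 in 2, and chance flags about 1 set in 20. Mef2d in mdx5cv muscle 4 was 1702.9 normalized counts, and the remaining 3 muscles of that genotype lay between 1984 and 2044. The log2 ratio of Mef2a to Mef2c in mdx5cv muscle 4 was −1.82, against −2.20 to −2.16 in the others. That muscle also had the largest size factor and the highest Myog, as given above. Without it the log2 fold change of Camk2b passed the test, while without WT muscle 2 that of Camk2b fell to 0.20.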

How the results depend on the processing

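With another pseudocount, another filter, TMM factors, no variance trend, edgeR or DESeq2, none of the 10 members was called, and over all settings 4609 to 6264 genes were called in all. With equal totals 9 members were called higher, and of the pathway genes 41 were called higher and 8 lower, beside 39.8% of all genes called higher. There the log2 fold change turned positive for Hdac4 (0.30), Hdac5 (0.29), Camk2a (0.27), Camk2g (0.16) and Calm2 (0.12). Centring each muscle on its median turned Mef2a (−0.0572), Mef2c (−0.0246) and Camk2d (−0.0056) negative. With 1 muscle left out, 0 to 1 members were called higher. The log2 fold change then ran from −0.101 to 0.0023 for Hdac4, from −0.137 to 0.0103 for Hdac5 and from −0.279 to 0.0856 for Camk2a. The difference in log2 ratio ran from −0.122 to 0.0102 for Mef2a to Mef2c, from −0.0478 to 0.139 for Hdac4 to Hdac5 and from −0.18 to 0.22 for Hdac7 to Hdac9. The values of Mef2a, Mef2c, Hdac4, Hdac5, Camk2a and Camk2d, all near 0, moved by over 1.5 times without 1 or another muscle and stayed uncalled. The exact test of a ratio cannot reach a p under 0.05 with 1 muscle left out or with 4 paired differences.

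Same-numbered muscles had correlations of their deviations from the group means of 0.03 to 0.15, against −0.15 to 0.07 for differently numbered muscles. Not every muscle correlated best with its own number, so the numbers are taken as names only. A fit with the replicate number as a block called 0 members, and 21 pathway genes higher and 25 lower. At 137 reads, the lowest count of any member, counting alone gives a coefficient of variation of 8.54%.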

Other observations

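Genes of slow fibers, the fiber type that the calcium, CaMKII and MEF2 pathway is best known to promote, were called higher in mdx5cv muscle for 4 of 5 genes, with summed normalized counts of 276 to 529 in WT and 1128 to 2518 in mdx5cv. Tnni1, the slow troponin I, rose by 4.15 and Atp2a2, the slow calcium pump, by 1.68 on the log2 scale (limma adjusted p = 7.28e-06 and 2.02e-05), while Myh7, the slow myosin, had 13.2 to 121.8 in WT and 19.5 to 230.1 in mdx5cv and was not called. Genes of fast glycolytic fibers were called lower for 3 of 5, among them Tnni2, the fast troponin I, which fell by 0.69 (limma adjusted p = 0.00641). Schwann cell markers were called lower for 4 of 4 genes tested, with sums of 312 to 645 in WT and 142 to 258 in mdx5cv. Of 5 smooth muscle and pericyte markers 3 were called higher and 2 lower, and none of 6 lymphocyte markers was high enough to be tested. Several slow fiber genes are also made by regenerating fibers, and the part of each was not tested.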
